A study of Homo sapiens with 12 samples.

Results

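The baseline transcriptome of LNCaP cells that received an empty vector was described from 3 libraries of the 12 in the series, those labelled as empty vector replicates 1 to 3, over all 13001 genes listed for them. LNCaP is an established line of human prostate cancer cells that came from a lymph node metastasis, and the clone FGC was used. The study transfected these cells transiently with LSD1, with the splice variant LSD1+8a, with SRRM4 or with the empty vector, 3 libraries each, in a setting of neuroendocrine prostate cancer. All 4 groups were 1 cell line at passage 8, grown in RPMI medium with serum, transfected with a Lipofectamine reagent and given fresh medium after 6 h, and polyA RNA was sequenced. The empty vector cells therefore share the transfection itself with every other group, and no untransfected cells were analysed here. Levels are in TPM, which scale the reads of a gene to its length and to the library, so that different genes can be compared. No contrast and no test was made: each value is a mean ± SD over the 3 libraries, genes are listed in the order of their means, which alone states no difference, and they are said to differ in level only where their ranges over the libraries did not overlap. The labels do not say whether the replicates were separate cultures, so the SD may be technical.

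Secretory luminal cells line the prostate gland and depend on androgen. The pioneer factor FOXA1 and the homeobox protein HOXB13 take part in this program, which drives kallikreins such as prostate-specific antigen, the product of KLK3. Basal cells lie beneath them and are known for other keratins and for laminins and integrins that hold cells to the basement membrane. Neuroendocrine prostate cancers carry neuronal and secretory-granule genes, many of which the repressor REST and its corepressor complex, which holds LSD1, keep silent in non-neuronal cells. Type I interferon acts through the receptor chains IFNAR1 and IFNAR2, the kinases JAK1 and TYK2 and the factors STAT2 and IRF9 to switch on interferon-stimulated genes.

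The 3 libraries held 12750609, 13570740 and 13233470 counts over the listed genes, and the listed genes held 99.1% of the full TPM total in each. Counts of replicate pairs varied more than sampling alone, with a chi-square per degree of freedom of 1.83 to 2.64, so no library was a copy of another. Across genes, log2(TPM + 1) of library pairs had a Pearson correlation of 0.992 in each pair, where genes are not independent replicates. Of markers of other cell types, 3 of 12 fibroblast genes, 1 of 11 leukocyte genes, 1 of 7 endothelial genes and 0 of 6 embryonic kidney genes were listed. Those found were COL1A1 at 8.60 ± 0.176 TPM, ACTA2 at 6.60 ± 0.356 TPM, COL3A1 at 0.647 ± 0.199 TPM, CD68 at 4.72 ± 0.725 TPM and VWF at 3.53 ± 0.0929 TPM (SD, n = 3). Genes that are not among the 13001 symbols were not analysed here, and a median or sum over a gene list covers only its listed members.

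Levels spanned several orders of magnitude, and few genes carried most of the RNA. The median gene stood at 18.9 TPM, with quartiles at 7.54 and 46.3 TPM, and the highest at 15685 TPM. How genes were chosen for listing is not given in the sources used here, so the median gene is that of the listed genes only. Means were under 1 TPM for 121 genes, from 1 to under 10 TPM for 3987, from 10 to under 100 TPM for 7466, from 100 to under 1000 TPM for 1297 and at or above 1000 TPM for 130. Those 130 genes held 43.2 ± 0.267% of the listed TPM, and the 1427 genes at or above 100 TPM held 72.5 ± 0.140% (SD, n = 3). The 10 most abundant genes alone held 11.4 ± 0.183%, the top 30 held 21.8 ± 0.155% and the top 100 held 39.4 ± 0.238%. Going down the order, 235 genes made up 50% of the TPM, 1700 genes made up 75% and 4646 genes made up 90%. By kind of gene, 11484 protein-coding genes held 94.3% of the TPM, 340 long noncoding genes held 0.785%, 265 pseudogenes held 1.55% and the 2 mitochondrial rRNAs held 1.32%. The other listed names, 891 of them unmatched to a gene kind, held the remainder.

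**Figure D1:**
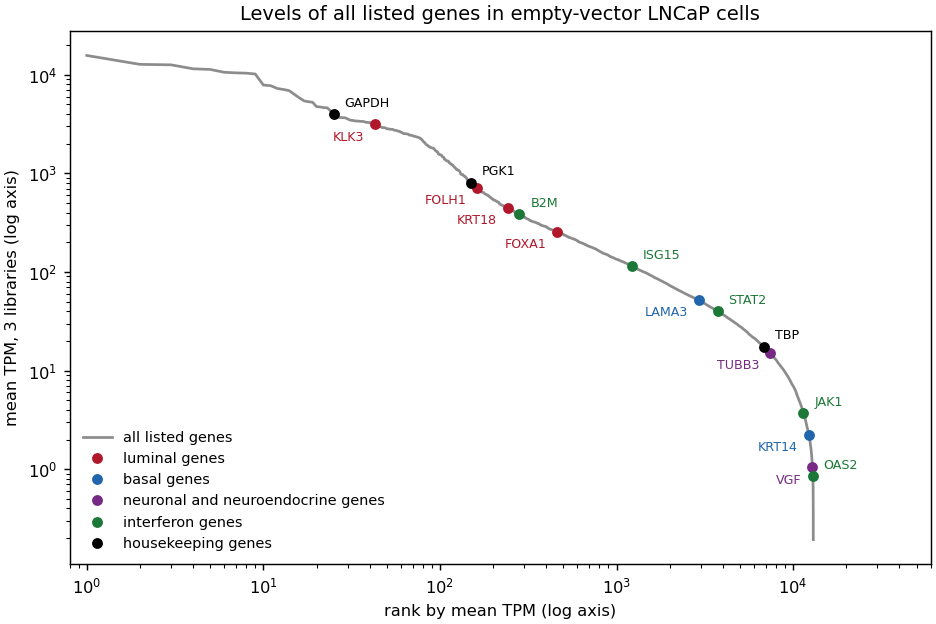
Mean TPM over the 3 empty vector libraries (log axis) against rank (log axis) for all listed genes as a grey line, with selected luminal, basal, neuronal and neuroendocrine, interferon and housekeeping genes as coloured points. KLK3 at 3139 TPM stands beside GAPDH at 4016 TPM at the upper end, and JAK1 at 3.73 TPM, KRT14 at 2.23 TPM and VGF at 1.05 TPM stand at the lower end.

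The most abundant transcripts were those of mitochondrial respiration and of protein synthesis. Of the 30 highest genes 12 were encoded in mitochondria, 14 encoded proteins of the cytosolic ribosome, and the others were the elongation factor EEF1A1, the ribosome-bound scaffold GNB2L1, the glycolytic enzyme GAPDH and RPL41P1, a listed processed copy of RPL41. The same 30 genes were the top 30 in each of the 3 libraries. Within their order, the ranges of 12 of the 29 neighbouring pairs did not overlap, so many neighbours cannot be ranked beyond their spread.

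MT-CO3, a subunit of cytochrome c oxidase in respiratory complex IV, had 15571, 15300 and 16182 TPM in the 3 libraries. MT-CO2, another subunit of that complex, had 12540, 12634 and 13044 TPM. The 3 libraries of MT-CO1, its catalytic subunit, held 13171, 12380 and 12253 TPM. MT-CO3 thus lay above the other subunits in every library, whereas MT-CO2 and MT-CO1 overlapped.

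Below them came MT-ND4L of complex I at 11488 ± 558 TPM, MT-ATP8 of the ATP synthase at 11314 ± 300 TPM, MT-ATP6 of the same enzyme at 10444 ± 346 TPM, the large ribosomal RNA MT-RNR2 at 10377 ± 319 TPM and MT-ND4 of complex I at 10170 ± 249 TPM (SD, n = 3). MT-CYB of complex III had 7744 ± 215 TPM, and the complex I subunits MT-ND1, MT-ND2 and MT-ND3 had 7085 ± 191, 6312 ± 176 and 3684 ± 198 TPM. The lowest mitochondrial genes were the small ribosomal RNA MT-RNR1 at 2675 ± 55.4 TPM, MT-ND5 at 2054 ± 42.0 TPM and MT-ND6 at 1677 ± 29.6 TPM. As polyA RNA was sequenced, levels of mitochondrial RNAs also depend on how well each was captured, which was not measured. All 15 mitochondrial genes passed 1000 TPM and together held 12.7% of the listed TPM. MT-ATP8 and MT-ATP6 are read from 1 overlapping message, as are MT-ND4L and MT-ND4, and reads in the overlap cannot be assigned to a single gene. The ratio of MT-ATP8 to MT-ATP6 was 1.08 ± 0.0148 and that of MT-ND4L to MT-ND4 was 1.13 ± 0.0335 (SD, n = 3). MT-ATP8 had 5816 to 6207 counts and MT-ATP6 had 52882 to 57497. MT-ND4L had 14918 to 16529 counts and MT-ND4 had 120349 to 130965. By counts scaled to the library alone, MT-ND4L ranked 69 and MT-ATP8 ranked 265. Their places by TPM and these ratios thus depend on the scaling to length.

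**Figure D2:**
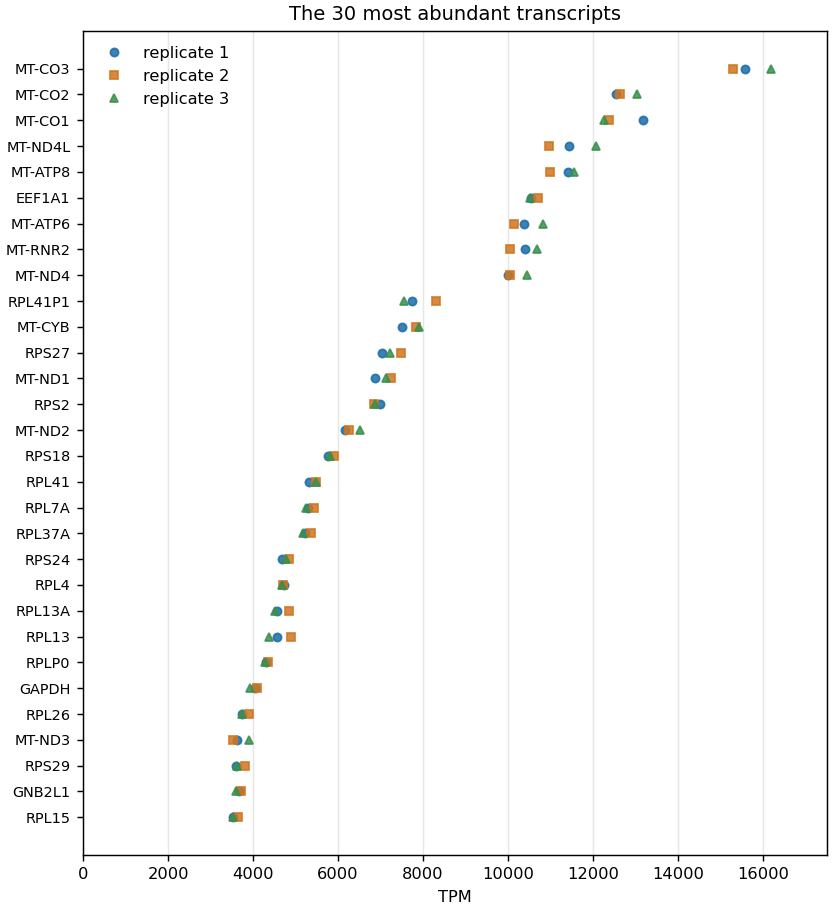
TPM of the 30 most abundant transcripts in each empty vector library, with a symbol for each replicate and genes ordered by mean. MT-CO3 stands apart at 15300 to 16182 TPM, and RPL15, the lowest, has a mean of 3565 TPM.

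All 79 listed genes for proteins of the cytosolic ribosome were abundant, from 307 to 7250 TPM with a median of 2538 TPM, and 75 of them passed 1000 TPM. Together they held 22.0% of the listed TPM. RPS27 was the highest at 7039, 7478 and 7234 TPM, followed by RPS2 at 6991, 6846 and 6872 TPM. RPS18 had 5828 ± 64.2 TPM, RPL41 had 5430 ± 96.7 TPM, RPL7A had 5328 ± 93.1 TPM and RPL37A had 5258 ± 100.1 TPM (SD, n = 3). RPS18 lay above RPL41 in every library, and the neighbours from RPL41 to RPL37A overlapped. Among the lowest were RPS26 at 704 ± 24.5 TPM and RPL22 at 307 ± 8.61 TPM. RPL41P1 stood at 7863 ± 395 TPM beside its near-identical RPL41, so the split of reads within this pair is uncertain. The sum of RPL41P1 and RPL41 was 13293 TPM with an SD of 3.23% of the mean.

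Translation factors and associated genes, 24 of 24 listed, ran from 118 to 10592 TPM with a median of 686 TPM. EEF1A1, which brings aminoacyl-tRNA to the ribosome, had 10541, 10718 and 10516 TPM. GNB2L1 followed at 3662 ± 55.6 TPM, the translocation factor EEF2 at 2831 ± 118 TPM, EEF1G at 2593 ± 68.6 TPM, the poly(A)-binding protein PABPC1 at 2379 ± 11.3 TPM and NACA, a chaperone at the nascent chain, at 2074 ± 17.7 TPM (SD, n = 3). The lowest were 3 subunits of the initiation factor eIF3, EIF3E at 263 ± 11.4 TPM, EIF3H at 253 ± 6.10 TPM and EIF3A at 118 ± 4.41 TPM.

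Messages of ribosomal proteins and of EEF1A1 are known for a run of pyrimidines at the 5' end, the TOP motif, which controls their translation, and the bases around the start of 9 genes of the top 30 are shown for that reason. Each run of 30 bases covers 10 before to 20 from the annotated start, from RefSeq on GRCh38.p14, and the longest run of C and T in it is in capitals. The files themselves were made on hg19, so these coordinates are those of RefSeq only: chr9:133348208-133348237 for RPL7A, chr10:78033853-78033882 for RPS24, chr19:49487598-49487627 for RPL13A, chr17:8383174-8383203 for RPL26, chr2:216498834-216498863 for RPL37A, chr6:33272065-33272094 for RPS18, chr6:73521013-73521042 for EEF1A1, chr12:6535254-6535283 for GAPDH, chr14:49598691-49598720 for RPS29. EEF1A1, RPL26 and RPS29 lie on the minus strand and the others on the plus strand.
RPL7A: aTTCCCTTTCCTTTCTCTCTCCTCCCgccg
RPS24: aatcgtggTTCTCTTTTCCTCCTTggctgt
RPL13A: aaaCCTCCTCCTTTTCCaagcggctgccga
RPL26: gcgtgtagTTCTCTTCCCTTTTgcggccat
RPL37A: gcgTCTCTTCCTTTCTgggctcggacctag
RPS18: cacttccgCTCTCTCTTCCacaggaggcct
EEF1A1: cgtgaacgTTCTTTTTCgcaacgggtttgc
GAPDH: gtgcaTCCCTgtccggatgctgcgcctgcg
RPS29: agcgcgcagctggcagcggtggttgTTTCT
A run of 8 or more C or T in this window was present in 14 of the 16 top 30 genes with a RefSeq window (87.5%), in 54 of 63 ribosomal protein genes (85.7%), in 6 of 18 luminal secretory genes (33.3%), in 9 of 39 interferon-stimulated genes (23.1%), in 5 of 27 housekeeping genes (18.5%) and in 17.1% of the 9739 listed genes with a window. GAPDH and RPS29, with longest runs of 5 bases in the window, were the 2 of the 16 without it. The RPS29 run reaches the end of the window, so its full length is not known here. Windows were found for 79.7% of the ribosomal list, 53.3% of the top 30 and 74.9% of all listed genes, so these shares hold for genes with a window and are void for the complete lists. A run of these letters is a description of the window and shows nothing about translation here.

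Of the 130 genes at or above 1000 TPM, 75 were ribosomal protein genes, 15 mitochondrial and 9 on the translation list, which left 31 others. Several of these were chosen for naming after their values were seen. FTH1, the heavy chain of the iron store ferritin, had 3141 ± 207 TPM, the chaperone HSPA8 had 2502 ± 25.5 TPM, the ubiquitin gene UBB had 1832 ± 27.9 TPM and the creatine kinase CKB had 1526 ± 44.0 TPM (SD, n = 3). Among secreted proteins, the matrix protein SPON2 had 1389, 1441 and 1336 TPM, the stress cytokine GDF15 had 1217, 1239 and 955 TPM, and the cytokine MIF had 1163, 1168 and 1031 TPM. GDF15 was lowest in replicate 3, where it lay under 1000 TPM.

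Housekeeping reference genes, genes commonly used to scale expression assays, were all listed, 31 of 31, but did not share a level. They ran from 17.5 to 4641 TPM, a 266-fold range, with a median of 256 TPM, and 30 of the 31 lay above the median gene. The highest were RPL13A at 4641 ± 172 TPM, RPLP0 at 4309 ± 43.1 TPM, GAPDH at 4016 ± 90.7 TPM, the prolyl isomerase PPIA at 2915 ± 54.1 TPM and the actins ACTG1 and ACTB at 1814 ± 118 and 1718 ± 26.0 TPM (SD, n = 3). RPLP0 lay above GAPDH in every library, and ACTG1 and ACTB overlapped. The lowest were POLR2A, the catalytic subunit of RNA polymerase II, at 47.7 ± 1.69 TPM, the importin IPO8 at 37.3 ± 1.41 TPM and the TATA-binding protein gene TBP at 15.8, 18.4 and 18.1 TPM. The median SD over mean in this list was 3.53% and that of all listed genes was 6.96%. Spread followed counts, and all genes with a mean of at least 1000 counts had a median of 3.68%, near that of this list.

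Subunits of the proteasome core and of the chaperonin CCT kept within narrower fold ranges than the housekeeping list, which holds more genes. This was not particular to protein machines. The 79 ribosomal protein genes spanned 23.6-fold, and the 11 listed transcription factors of the prostate lineage spanned 5.93-fold. The 14 genes of the proteasome's 20S core ran from 65.3 to 486 TPM with a median of 191 TPM, a 7.45-fold range. PSMB4 was highest at 486 ± 6.63 TPM, followed by PSMB1 at 264 ± 6.83, PSMA7 at 257 ± 3.18, PSMB3 at 229 ± 5.44, PSMB5 at 223 ± 9.36 and PSMA4 at 201 ± 16.4 TPM (SD, n = 3). Of these neighbours by mean, the ranges of PSMB1 and PSMA7, of PSMB3 and PSMB5, and of PSMB5 and PSMA4 overlapped. The lowest were PSMA3 at 148 ± 6.82, PSMA2 at 128 ± 8.90 and PSMB2 at 65.3 ± 0.891 TPM. The 8 subunits of the chaperonin CCT, which folds actin and tubulin, stayed within a 3.65-fold range with a median of 202 TPM. By mean these were CCT3 at 404 ± 13.8, TCP1 at 326 ± 18.6, CCT5 at 265 ± 16.6, CCT8 at 217 ± 13.8, CCT2 at 187 ± 8.24, CCT6A at 185 ± 11.2, CCT7 at 160 ± 8.86 and CCT4 at 111 ± 4.02 TPM. The ranges of CCT2 and CCT6A overlapped.

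**Figure D3:**
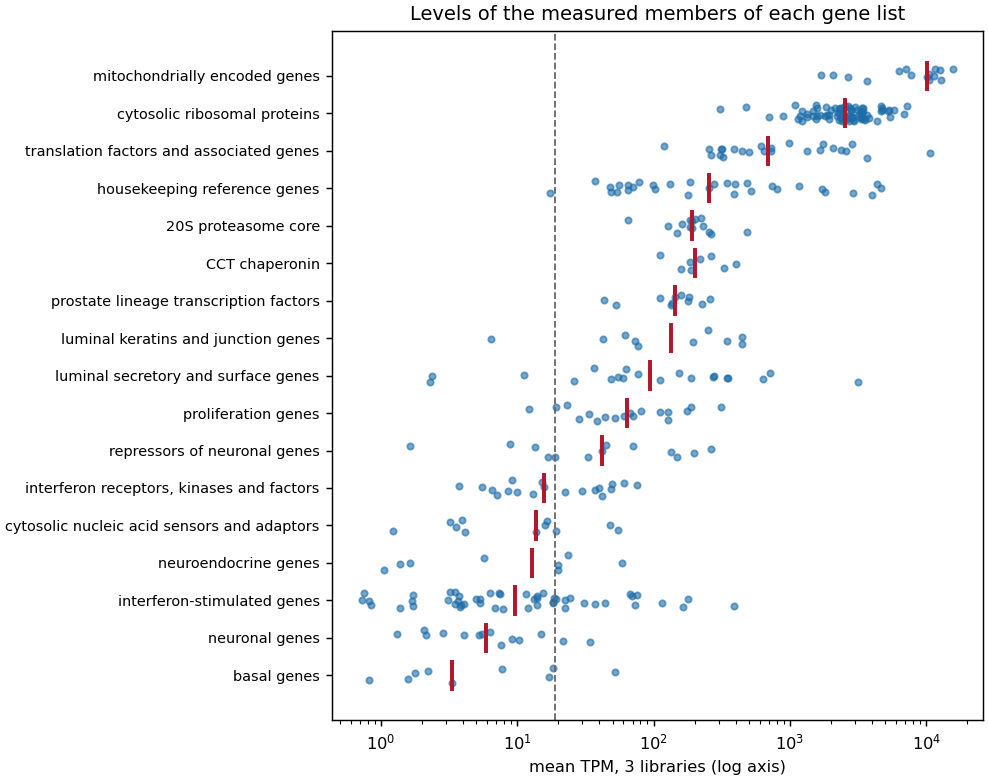
Mean TPM of each measured member (points, log axis) of 17 gene lists, with the list median as a red bar and the median of all listed genes, 18.9 TPM, as a dashed line. Medians run from 10170 TPM for mitochondrial genes to 3.30 TPM for basal genes, and points are spread vertically at random within a list.

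Luminal secretory and surface genes were mostly above the median gene, 17 of 20 listed, and KLK3 was the highest. Of 24 such genes 20 were listed, with a median of 94.7 TPM and a sum of 6565 ± 32.9 TPM (SD, n = 3), and KLK3 alone held 47.8% of that sum. Without KLK3 the sum was 3426 TPM. KLK3 had 3127, 3180 and 3110 TPM, rank 43 of all listed genes, and 39122, 42786 and 40657 counts. On CPM, counts scaled to the library without regard to length, its rank was 17. Its level was nearly the same in all 3 libraries, with an SD of 1.18% of the mean.

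FOLH1, the surface peptidase known as PSMA, had 698, 706 and 741 TPM. The kallikrein KLK2 had 632, 636 and 619 TPM, and the ratio of KLK3 to KLK2 was 4.99 ± 0.0402 (SD, n = 3). FOLH1 lay above KLK2 in every library. TMPRSS2, an androgen-regulated surface protease, had 352 ± 10.9 TPM, the metalloreductase STEAP1 had 347 ± 18.97 TPM and the kallikrein KLK4 had 278 ± 7.35 TPM. The ranges of TMPRSS2 and STEAP1 overlapped. ACPP, prostatic acid phosphatase, named here after its value was seen, had 54.4 ± 2.24 TPM. The lowest of the list were the cold-sensing channel TRPM8 at 14.5, 8.47 and 10.9 TPM, the peptidase DPP4 at 2.39 ± 0.405 TPM and the noncoding PART1 at 2.30 ± 0.0814 TPM. MSMB, CD24, TGM4 and NPY were not among the listed symbols.

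KLK3 and KLK2 lie side by side in the kallikrein cluster, and the 250 bases before each start are shown because the results turn on their shared, high expression. They come from RefSeq on GRCh38.p14, plus strand, at chr19:50854665-50854914 for KLK3 and chr19:50873189-50873438 for KLK2. Capitals mark the longest stretch that is identical in both genes, 80 bases that begin 154 bases before the KLK3 start and 160 bases before the KLK2 start.
KLK3: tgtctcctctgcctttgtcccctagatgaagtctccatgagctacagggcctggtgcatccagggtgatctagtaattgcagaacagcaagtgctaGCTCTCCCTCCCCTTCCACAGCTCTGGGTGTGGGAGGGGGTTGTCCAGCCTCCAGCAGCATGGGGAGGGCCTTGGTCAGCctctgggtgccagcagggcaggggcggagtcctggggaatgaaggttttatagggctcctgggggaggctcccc
KLK2: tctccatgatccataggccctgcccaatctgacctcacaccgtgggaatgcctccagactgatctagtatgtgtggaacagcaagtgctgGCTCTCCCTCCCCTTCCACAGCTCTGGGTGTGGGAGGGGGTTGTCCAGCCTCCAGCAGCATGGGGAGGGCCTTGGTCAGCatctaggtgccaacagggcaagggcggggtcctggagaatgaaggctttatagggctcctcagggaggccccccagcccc
Set side by side at an offset of 6 bases without gaps, 185 of 244 bases were identical (75.8%). The hexamer AGAACA, part of the androgen response element, began 170 bases before the start of KLK3 and had no exact match in the KLK2 window. At the aligned place the KLK2 window reads GGAACA, which differs only in its first base and which the exact search does not count. TTTATA, the reverse complement of the TATA box letters TATAAA, began 28 bases before the KLK3 start and 34 bases before the KLK2 start. Searched on both strands of the 250 bases, AGAACA was in 3 of 18 luminal secretory genes with a window (KLK3, PMEPA1 and TRPM8, 16.7%), in 6 of 63 ribosomal protein genes (9.52%), in 2 of 27 housekeeping genes (7.41%), in 0 of 39 interferon-stimulated genes and in 10.7% of the 9739 listed genes with one. TATAAA was in 4 of the 18 (KLK2, KLK3, STEAP2 and TRPM8, 22.2%), in 4 of 27 housekeeping genes (14.8%), in 5 of 39 interferon-stimulated genes (12.8%), in 5 of 63 ribosomal protein genes (7.94%) and in 7.46% of the 9739. With so few genes these shares are a description, and a window without the letters shows nothing about the factor.

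Luminal keratins and epithelial junction genes were high, with 10 of 12 listed, a median of 135 TPM and a sum of 1936 ± 39.1 TPM. KRT18 had 449, 461 and 427 TPM and KRT8, its partner in the keratin filaments of simple epithelia, had 459, 439 and 435 TPM. Their levels overlapped, and the ratio of KRT8 to KRT18 was 0.998 ± 0.0387 (SD, n = 3). Among junction genes, the claudins CLDN7 and CLDN4 had 344 ± 2.97 and 193 ± 3.85 TPM, and the adherens junction cadherin CDH1 had 250 ± 6.67 TPM. The adhesion molecule EPCAM had 76.4 ± 0.466 TPM, the scaffold TJP1 had 72.4 ± 0.925 TPM, CLDN3 had 61.7 ± 8.98 TPM and occludin, OCLN, had 42.2 ± 1.58 TPM. KRT19 was low in this list, at 6.04, 6.98 and 6.33 TPM, and lay under the median gene.

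All 11 listed transcription factors of the prostate lineage, of 15, lay above the median gene, from 43.4 to 257 TPM, within a 5.93-fold range. FOXA1, which opens chromatin for other factors, was highest at 259, 266 and 246 TPM. HOXB13 had 185, 185 and 180 TPM. Their ranges did not overlap, so FOXA1 lay above HOXB13 in every library.

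Below FOXA1 were also the epithelial ETS factor EHF at 179 ± 7.14 TPM, ETV1, an ETS factor, at 160 ± 12.9 TPM, GATA2 at 143 ± 3.68 TPM, the membrane-bound factor CREB3L4 at 134 ± 2.60 TPM and SPDEF at 112 ± 8.11 TPM. ELF3 and GRHL2, factors of epithelial cells, were lowest at 52.8 ± 7.72 and 43.4 ± 0.720 TPM. GATA3, ETV4, ETV5 and ERG were not among the listed symbols.

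**Figure D4:**
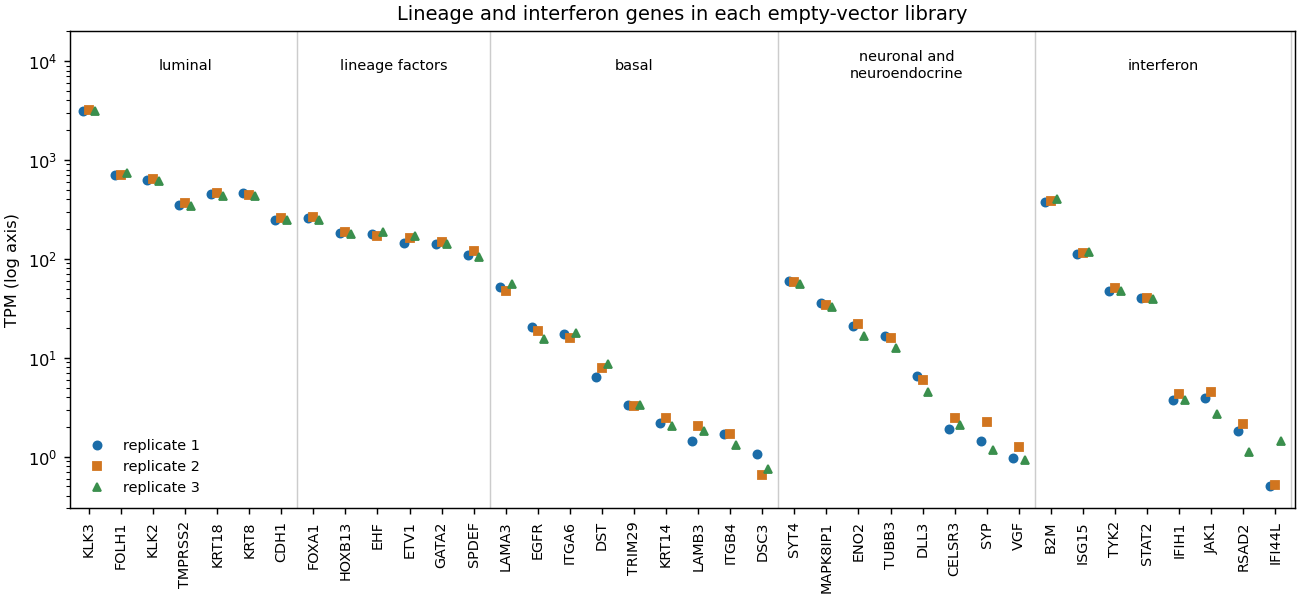
TPM (log axis) of luminal, lineage factor, basal, neuronal and neuroendocrine, and interferon genes in each empty vector library, with a symbol for each replicate. KRT18 at 427 to 461 TPM lies far above KRT14 at 2.06 to 2.44 TPM, and TYK2 at 47.4 to 50.6 TPM lies above JAK1 at 2.72 to 4.53 TPM in every library.

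Few basal genes were listed, and most of those were low. Of 22 basal genes 9 were listed, with a median of 3.30 TPM and a sum of 104 ± 3.95 TPM (SD, n = 3), and 8 of the 9 lay under the median gene. LAMA3, a chain of the basement membrane laminin, was the exception at 52.2, 47.4 and 55.8 TPM and held 49.6% of the sum. The growth factor receptor EGFR had 20.7, 18.7 and 15.5 TPM and the laminin receptor chain ITGA6 had 17.6, 15.8 and 17.6 TPM. EGFR and ITGA6 overlapped.

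The hemidesmosome linker DST had 7.69 ± 1.23 TPM, TRIM29 had 3.30 ± 0.0520 TPM and the laminin chain LAMB3 had 1.77 ± 0.295 TPM. The basal keratin KRT14 had 2.18, 2.44 and 2.06 TPM, from 28 to 30 counts, so that KRT18 was 201 ± 10.4 times as high (SD, n = 3). ITGB4, the integrin partner of ITGA6, had 1.57 ± 0.225 TPM and the desmosomal cadherin DSC3 had 0.823 ± 0.212 TPM. KRT5 and TP63, the defining keratin and factor of basal cells, were not among the listed symbols.

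Neuronal genes were also low. Of 36 such genes 14 were listed, with a median of 5.90 TPM and 10 under 10 TPM. The highest were MAPK8IP1, a scaffold of JNK signalling, at 35.5, 34.1 and 32.6 TPM and the axonal motor KIF1A at 24.4, 20.5 and 20.1 TPM. TUBB3, the tubulin used as a marker of neurons, had 16.7, 15.9 and 12.5 TPM, below MAPK8IP1 in every library. MAPT, the microtubule protein tau, had 10.3 ± 0.798 TPM, MAPK8IP2 had 9.12 ± 1.78 TPM and the motor KIF5C had 7.54 ± 0.570 TPM (SD, n = 3). The lowest were the adhesion receptor CELSR3 at 2.15 ± 0.266 TPM, the neurofilament NEFL at 2.05 ± 0.0833 TPM and the presynaptic BSN at 1.31 ± 0.116 TPM.

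Neuroendocrine genes gave 8 listed of 31, with a median of 12.8 TPM and a sum of 131 ± 4.47 TPM. SYT4, a synaptotagmin of secretory vesicles, held 44.2% of that sum at 59.9, 58.6 and 56.0 TPM. Next came 2 genes that dividing cells also use, the kinase AURKA at 23.5 ± 0.559 TPM and the histone methyltransferase EZH2 at 20.04 ± 1.07 TPM, and the enolase ENO2 at 20.9, 22.2 and 16.8 TPM (SD, n = 3). ENO1, the general enolase, was 68.9 ± 7.78 times as high as ENO2. The Notch ligand DLL3 had 6.59, 6.03 and 4.55 TPM, the vesicle protein SYP had 1.44, 2.26 and 1.17 TPM, the factor ONECUT2 had 1.37 ± 0.236 TPM and the granule peptide VGF had 0.96, 1.26 and 0.92 TPM. SYP and VGF rested on 27 to 43 and 22 to 31 counts, at which counting error is large. CHGA, CHGB, INSM1 and SRRM4 were not among the listed symbols.

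Repressors of neuronal genes were listed in full, 13 of 13, with a median of 41.8 TPM. KDM1A, the gene of LSD1, had 43.5, 42.6 and 48.3 TPM, which is its level without the transfected copies. REST, the factor that binds neuronal genes, had 13.6, 13.2 and 13.6 TPM, below KDM1A in every library. Of the corepressor subunits, HMG20B had 199 ± 6.25 TPM, the deacetylases HDAC2 and HDAC1 had 148 ± 7.10 and 135 ± 0.817 TPM and RCOR2 had 1.64 ± 0.257 TPM (SD, n = 3). RCOR2 was the lowest of the list. RCOR3 and RCOR1, named after their values were seen, had 41.8 ± 2.15 and 16.7 ± 2.28 TPM. PTBP1, which represses neuronal exons, was the highest at 263 ± 5.40 TPM, and the phosphatase CTDSP1 had 70.5 ± 3.24 TPM. A level summed over a gene does not tell its splice forms apart, so LSD1+8a was not measured.

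The interferon pathway was present at low to moderate levels, with JAK1 the lowest. Of 22 receptors, kinases and factors 19 were listed, with a median of 15.6 TPM. TYK2 had 47.4, 50.6 and 47.7 TPM and JAK1 had 3.95, 4.53 and 2.72 TPM, the lowest of the 19. The 2 kinases act as a pair on the type I receptor, and the ratio of TYK2 to JAK1 was 13.6 ± 3.47 (SD, n = 3), from 96 to 121 JAK1 counts. JAK2, the kinase of the interferon gamma receptor chain IFNGR2, had 7.19, 6.06 and 6.49 TPM.

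STAT3 was the highest of the list at 75.6 ± 1.32 TPM, followed by IRF3, which responds to nucleic acid sensors, at 60.9 ± 3.10 TPM, the phosphatase PTPN11 at 49.4 ± 1.94 TPM, TYK2, the phosphatase PTPN6 at 41.7 ± 1.36 TPM and STAT2 at 40.0 ± 0.547 TPM (SD, n = 3). IRF1, an early target of interferon, had 5.50 ± 0.775 TPM. The members of the type I arm below were named for their role after their values were seen. IRF9 had 8.19, 9.49 and 9.65 TPM, below STAT2 in every library. The receptor chains IFNAR1 and IFNAR2 had 25.3, 17.0 and 25.2 TPM and 11.7, 8.08 and 10.0 TPM, with both chains lowest in replicate 2. IFNAR1 counts were 801, 778 and 819, so its counts varied far less than its TPM.

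Cytosolic sensors of foreign nucleic acid and their adaptors, 11 listed of 16, had a median of 13.8 TPM. The ubiquitin ligase TRIM25 had 54.4 ± 4.17 TPM, the mitochondrial adaptor MAVS 47.6 ± 2.39 TPM, TRAF3 19.2 ± 0.727 TPM, the kinase TBK1 16.5 ± 1.57 TPM, the RNA-activated kinase EIF2AK2 16.1 ± 1.10 TPM and ZCCHC3 13.8 ± 1.49 TPM (SD, n = 3). Of these EIF2AK2 is itself a sensor of double-stranded RNA. Other sensors were lower than it in every library, IFIH1 at 3.77, 4.31 and 3.72 TPM, DDX58 at 3.07, 3.09 and 3.42 TPM, their relative DHX58 at 3.31, 3.28 and 4.0 TPM and the endosomal TLR3 at 1.64, 1.19 and 0.82 TPM. The kinase IKBKE had 4.11 ± 0.261 TPM. MAVS lay above IFIH1 and DDX58 in every library.

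Interferon-stimulated genes ranged from under 1 TPM to 388 TPM, and 15 of the 50 listed lay above the median gene. Of 62 genes 50 were listed, with a median of 9.71 TPM, a sum of 1577 ± 28.9 TPM, and 25 of 50 under 10 TPM. B2M, the light chain of class I molecules, had 378, 381 and 405 TPM, HLA-C had 180 ± 5.40 TPM and HLA-B had 75.6 ± 3.07 TPM (SD, n = 3). IFITM3, which blocks virus entry, had 164 ± 5.87 TPM, and the ubiquitin-like modifier ISG15 had 113, 115 and 118 TPM. HLA genes are near-identical to each other and polymorphic, so their counts are uncertain.

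The lowest of the list were IFI44L at 0.51, 0.52 and 1.44 TPM, SAMD9 at 0.753 ± 0.0808 TPM and PARP14 at 0.727 ± 0.155 TPM, with 9 to 18 counts for IFI44L. Antiviral effectors named after their values were seen included OAS3 at 18.2 ± 2.16 TPM, IFIT1 at 5.37 ± 1.05 TPM, MX1 at 3.09 ± 0.928 TPM and RSAD2 at 1.70 ± 0.520 TPM. ISG15 lay above each of these in every library.

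The 250 bases before the ISG15 start are shown because ISG15, at a mean of 115 TPM, was among the highest antiviral genes of the list and carries the core of the interferon-stimulated response element, GAAANNGAAA, where N is any base. They come from RefSeq on GRCh38.p14, plus strand, chr1:1013247-1013496, and capitals mark its 2 overlapping matches, which begin 113 and 107 bases before the start.
ISG15: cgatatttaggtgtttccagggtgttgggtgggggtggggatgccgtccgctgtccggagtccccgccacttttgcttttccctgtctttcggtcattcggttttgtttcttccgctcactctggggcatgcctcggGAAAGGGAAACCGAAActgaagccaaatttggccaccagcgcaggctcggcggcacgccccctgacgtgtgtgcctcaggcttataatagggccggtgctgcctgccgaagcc
On either strand of the same 250 bases, this core was in 28 of 39 interferon-stimulated genes with a window (71.8%), in 0 of 18 luminal secretory genes, in 3 of 63 ribosomal protein genes (4.76%), in 2 of 27 housekeeping genes (7.41%) and in 3.19% of the 9739 listed genes with a window. The 2 housekeeping genes were PSMB4 and B2M, and B2M is on both lists. Windows covered 78.0% of the interferon-stimulated list, so this share is void for the complete list. The genes with the core were not all high, with B2M at 388 TPM and HERC5 at 1.73 TPM among them, and a match to these letters is not a measured binding site.

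Genes of the cell cycle were all listed, 18 of 18, with a median of 63.9 TPM. CDK4, the kinase of early G1, had 314 ± 11.5 TPM, the replication clamp PCNA had 187 ± 2.68 TPM and CCND1, the G1 cyclin that partners CDK4, had 175 ± 9.84 TPM. RRM2 and TYMS, which supply nucleotides, had 128 ± 8.26 and 112 ± 6.14 TPM, and the mitotic cyclin CCNB1 had 127 ± 6.68 TPM (SD, n = 3). The lowest were the checkpoint kinase BUB1 at 23.0 ± 0.861 TPM and the cyclins CCNA2 and CCNE1 at 19.2 ± 0.474 and 12.1 ± 1.22 TPM. Of 16 tumour suppressors and oncogenes, all listed, the inhibitor CDKN1A was highest at 193 ± 6.69 TPM, and others among the highest were AKT1 at 144 ± 2.68, CTNNB1 at 138 ± 2.64, ERBB2 at 124 ± 8.45 and ERBB3 at 88.6 ± 2.12 TPM. BRCA2 at 5.45 ± 0.484, PIK3CA at 4.04 ± 0.621 and BCL2 at 1.59 ± 0.443 TPM were the lowest.

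Of 18 noncoding RNAs 11 were listed under the symbols searched. NEAT1, the scaffold of paraspeckles, had 656, 730 and 659 TPM, and the snoRNA host genes GAS5 and SNHG8 had 641 ± 6.83 and 530 ± 24.0 TPM. DANCR had 396 ± 10.9 TPM, ZFAS1 192 ± 3.46 TPM and SNHG1 182 ± 36.0 TPM, and MALAT1, a nuclear RNA, had 116 ± 1.85 TPM. TUG1, SNHG5 and SNHG6 had 77.3 ± 2.66, 73.0 ± 3.74 and 67.3 ± 6.4 TPM, and KCNQ1OT1 was lowest at 0.353 ± 0.0208 TPM (SD, n = 3). KCNQ1OT1 had 326 to 343 counts, more than SNHG5 with 265 to 302, so its last place by TPM depends on the scaling to length. The libraries held polyA RNA, so an RNA with a short or absent polyA tail can read lower than its amount in the cell. Capture of each RNA was not measured, and this order is that of the polyA libraries. The RNA now named NORAD was listed as LINC00657 and had 75.7, 73.7 and 73.3 TPM.

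The spread between the 3 libraries was small for most genes and followed their counts. The median SD over mean was 6.96% for TPM, and 8791 genes (67.6%) lay under 10% while 96 genes lay over 50%. For genes with a mean of 30 to 100 counts the median was 15.3%, and counting error alone gives 11.1%. For genes with 1000 to 3000 counts it was 3.997%, where counting error alone gives 2.14%, and for genes above 10000 counts 2.09%, where it gives 0.666%. CPM from the same libraries, which do not depend on how reads are shared among isoforms, had a median of 5.0% over all genes.

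Genes were picked here by their spread in TPM, which by itself favours those with more spread in TPM than in CPM. The 10 genes with the largest spread in TPM among the 2976 with at least 1000 counts were, all but 1, more variable in TPM than in CPM by over 2 times. NDUFA4L2, a hypoxia-linked mitochondrial protein, was the exception, with 124, 139 and 83.3 TPM and 1227, 1477 and 863 counts, an SD of 25.02% in TPM and 24.9% in CPM. PTP4A1, a phosphatase, had 223, 196 and 137 TPM from 1919, 2048 and 2036 counts, an SD of 23.6% in TPM and 1.204% in CPM. A larger spread in TPM than in CPM was also seen for SSFA2, MDN1, SNHG1, IREB2, MCM3AP, ELK4, BIRC6 and GALNT10, with 16.9 to 22.9% in TPM and 1.64 to 7.62% in CPM, where the median of genes of this depth was 2.78%. Of the 133 genes of this depth with over 10% in TPM, 68 had under 5% in CPM. These too were picked by TPM, and the reverse count was not made. How reads were shared among isoforms was not tested.

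**Figure D5:**
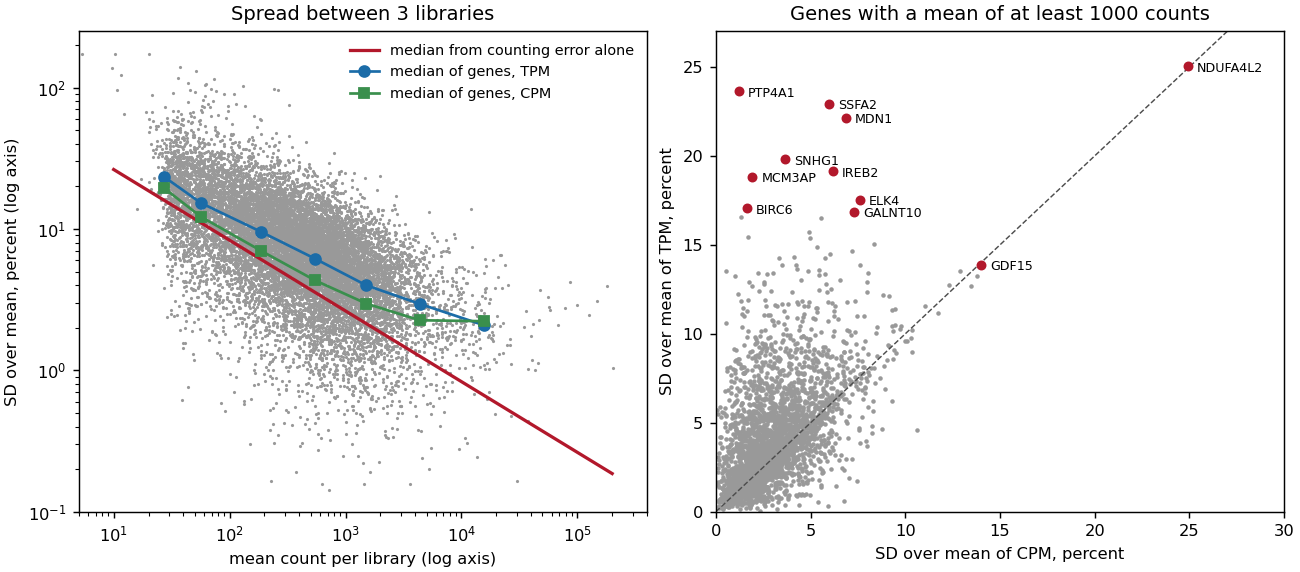
Left, SD over mean of TPM for each gene (grey) against its mean count, with medians by count range for TPM and for CPM and the median that counting error alone gives, on log axes. Right, SD over mean of TPM against that of CPM for genes of at least 1000 counts, where NDUFA4L2 lies near the dashed line of equal spread at 25.02 and 24.9% and PTP4A1 lies far above it at 23.6 and 1.204%.

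Some functional groups were mostly high or low in the same library. Those given here were picked from the 23 gene lists after their values were seen. Other lists were more even, such as housekeeping genes, with 10, 11 and 10 of 31 highest in replicates 1, 2 and 3. Ribosomal protein genes were highest in replicate 2 for 55 of 79, where 31.4% of all listed genes were, and their sums were 215930, 221357 and 215619 TPM. Mitochondrial genes were highest in replicate 3 for 11 of 15, where 34.2% of all genes were, with sums of 125527, 123628 and 128992 TPM. Of the 8 CCT subunits 0 were highest in replicate 2, and their sums were 1912, 1759 and 1891 TPM. The SD of these sums over the libraries was 3227, 2720 and 82.7 TPM. Members of a group are not independent, and their relation to depth, which was also highest in replicate 2, was not tested.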

How the data were processed

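RNA of 3 empty vector libraries of LNCaP cells was analysed from the deposited tables. Per the file headers, the authors deposited whole-number counts per gene and TPM per gene for the same 13001 genes. STAR 2.5.3a and RSEM 1.2.31 with the hg19 genome are listed in the submitters' processing notes, with no step given, and the strand setting is not given in the sources used here. The listed genes held 99.1% of the full TPM total, so the scaling covered more genes than are listed. The 9 columns of the other groups in the TPM table were not used. Depth was 12750609 to 13570740 counts per library.

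Means, SD and SD over mean were computed from TPM in Python 3.11.15 with pandas 2.3.3 and numpy 2.4.6, and CPM, counts scaled to the library total, from the deposited counts. No filter was applied and no test was made. The spread from counting alone was taken from the mean count, a limit that covers counting error only. The calculation of spread was tested on simulated data. Of the symbols, 11106 were current RefSeq symbols, 932 older ones and 963 unmatched. Sequences came from RefSeq tables of GRCh38.p14, which gave a window for 9739 genes.

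The libraries to describe and the 23 gene lists, of which 380 of 506 entries were measured, were chosen with earlier results of these data known. Named genes are the 30 with the highest mean TPM, every measured member of lists with up to 12 measured members and otherwise the 6 highest and 3 lowest, and the 10 with the largest SD over mean among genes with at least 1000 counts. Genes known only by clone names were left out, and genes named by other choice are said to be so. Some genes that this rule would name are not reported here. Alternatives were leaving out each library, means on the log2 scale with pseudocounts of 1 and 0.1, only genes of at least 1 TPM, leaving out mitochondrial genes, and CPM.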

Additional observations from a re-analysis of the deposited data

How the results depend on the processing

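Leaving out any 1 library, averaging on the log2 scale with either pseudocount and keeping only genes of at least 1 TPM moved the sums of the 9 main lists, the numbers of genes past 10 and 100 TPM and the share of the top 30 by less than 1 SD or 1.5 times. For the sums, leaving out a library could not give another outcome. A mean of 3 values cannot move by their SD when 1 is dropped, so this shows nothing about any library. The median SD over mean, 6.96% from 3 libraries, was 5.29 to 5.88% from 2. The median of an SD from 2 values is lower than from 3 at the same spread, so this fall says nothing about any library. Other scalings moved the sums. Leaving out mitochondrial genes and rescaling raises every other sum by nearly the same factor by construction, so the sums given for it say nothing about a single list. Without mitochondrial genes and rescaled to the full TPM total, the top 30 held 15.7%, and the sums became 7589 TPM for luminal secretory genes, 2237 for luminal keratins, 121 for basal, 147 for neuronal, 152 for neuroendocrine, 1823 for interferon-stimulated, 30074 for housekeeping and 251576 for ribosomal protein genes. As CPM, which weigh long genes more, 2155 genes passed 100, the top 30 held 13.8%, the median SD over mean was 5.0%, and the sums in the same order were 8369, 2728, 521, 375, 247, 1515, 23250 and 87047, with 72884 for mitochondrial genes. Of the top 30 by TPM, 20 were among the top 30 by CPM. No paired analysis was possible because only 1 group was described and no test was made. The median SD over mean had no value on the log2 scale and the mitochondrial sum none without its genes. Low genes are limited by depth: those under 30 counts had a median SD over mean of 23.3%.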

Other observations

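Near-identical gene pairs showed large swings that cancelled, and these were picked after their values were seen. CSAG2, a cancer-testis gene, had 69.7, 37.3 and 0 TPM in the 3 libraries, whereas its copy CSAG3 had 0, 42.3 and 74.3 TPM. Their sum was 69.7, 79.6 and 74.3 TPM, with an SD of 6.62% of the mean, against 97.8% for CSAG2 and 95.9% for CSAG3 alone. F8A2 and F8A3, copies of 1 gene on the X chromosome, had SDs of 104% and 114% of the mean and 20.8% for their sum. In all, 17 genes were at 0 in at least 1 library, 6 of these with at least 100 counts in another, and 1 gene was at 0 in all 3.

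A high TPM with few reads was seen in a gene chosen after its values were seen. The gene listed as AL162151.3 had 949, 1099 and 1196 TPM from 167, 207 and 222 counts, rank 127 by TPM and rank 8981 by CPM.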
